A study of Zea mays with 18 samples.

Results

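The 3 genes described here encode the enzymes that make carlactone, the common precursor of the strigolactones (SLs), in maize roots. They were chosen by gene identifier, which gave ZmCCD8 (Zm00001eb153000), CCD7 (Zm00001eb074640) and D27 (Zm00001eb114610), 3 of the 55661 features in the table and 3 of the 27530 that passed a filter of at least 1 FPKM (fragments counted on a gene, scaled to its length and to the library's depth) in at least 3 libraries. Polyadenylated RNA of whole roots was sequenced from *zmccd8*::Ds plants, which carry a Ds transposon in ZmCCD8 in the genetic background of B73, and from the maize inbred B73 itself (WT), after 4 weeks in vermiculite. Plants received complete nutrient solution through the whole period (control, CT), the same solution in which 1 mM KNO3 was exchanged for KCl (nitrogen deprivation, 0N), or complete solution at transplanting and no later irrigation (water stress, WS). Each of the 6 groups had 3 libraries, 18 in all, and each library came from the pooled roots of several plants. The mutant is a single insertion line, with Ds in the third exon of ZmCCD8.

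SLs act inside the plant as hormones, best known for holding back the outgrowth of axillary buds, and outside it as signals that fungal partners and parasitic weeds such as Striga perceive in the soil. Their synthesis starts in plastids, where D27 isomerises beta-carotene, CCD7 cleaves the isomer, and CCD8 turns the cleavage product into carlactone. Cytochrome P450 enzymes of the CYP711A family (MAX1 in *Arabidopsis*) then oxidise carlactone further. In grasses and other plants this pathway is known to be induced in roots that lack nitrogen or phosphate.

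In the NAM-5.0 B73 assembly used for the table, ZmCCD8 lay on chromosome 3 from 202178668 to 202182189 on the minus strand. CCD7 lay on chromosome 2 from 20885045 to 20888121 on the plus strand, and D27 on the same chromosome and strand from 233979183 to 233983258. None of the 3 overlapped another feature. The best protein hits were from rice, namely CCD8 homolog B, CCD7 and D27. ZmCCD8 and CCD7 also have quantitative RT-PCR primers in the study's primer list, shown here in lower case, 5′ to 3′, because they identify which transcripts the study tracked under these names.
CCD8 forward: agaaaggtgtctctgctgct
CCD8 reverse: ctatgggctcgctcacatga
CCD7 forward: tccggctcgcgcagattc
CCD7 reverse: ctgcccagaacccatgga
The primers of CCD8 are 20 bases long and those of CCD7 18 bases, with a GC content of 50.0% and 55.0% in the first pair and of 66.7% and 61.1% in the second. They were not placed on the transcripts here, so their position relative to the Ds insertion is not given.

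The libraries held 30104083 to 43429912 reads on genes, as rebuilt from the FPKM values. Behind the values of the 3 genes stood 303 to 5646 reads per library for ZmCCD8, 118 to 1441 for CCD7 and 59 to 1242 for D27. Transcripts of Casparian strip membrane proteins, markers of the root endodermis, were present, with 7 of 8 features past the filter. Of 19 leaf marker features 8 passed the filter and 5 were at 0 throughout. All 19 were matched by enzyme name alone (phosphoenolpyruvate carboxylase, pyruvate, phosphate dikinase and Rubisco small subunit), so leaf forms were not told apart from other forms. Most of their summed level came from phosphoenolpyruvate carboxylases, while the small subunit of Rubisco (Zm00001eb197410) averaged 0.155 to 4.26 FPKM over the 6 groups. As a check of the labels, 155 genes that differed between *zmccd8* and WT in the same direction under both 0N and WS were read in the CT libraries. Between 147 and 151 of them were nearer to the *zmccd8* level in the *zmccd8* CT libraries, and 6 or 7 in the WT CT libraries.

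Under 0N, every *zmccd8* library had less transcript of each of the 3 genes than any WT library, a separation that 16.7% of all genes showed in this direction. The difference passed the test for ZmCCD8 and D27, where 1.57% of all genes were called. ZmCCD8 had 17.6, 9.47 and 19.2 FPKM in *zmccd8*, against 70.9, 64.1 and 47.8 FPKM in WT. The highest mutant library, at 19.2 FPKM, was below the lowest WT library, at 47.8 FPKM. The group means were 15.4 ± 5.23 FPKM in *zmccd8* and 60.9 ± 11.8 FPKM in WT (SD, n = 3 each), and WT was 3.95-fold higher. D27 had 8.93, 7.66 and 10.3 FPKM in *zmccd8*, against 26.4, 16.8 and 23.8 FPKM in WT, which was 2.49-fold higher. CCD7 had 4.62, 2.95 and 5.02 FPKM in *zmccd8*, against 10.4, 9.08 and 9.14 FPKM in WT, which was 2.27-fold higher.

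**Figure D1:**
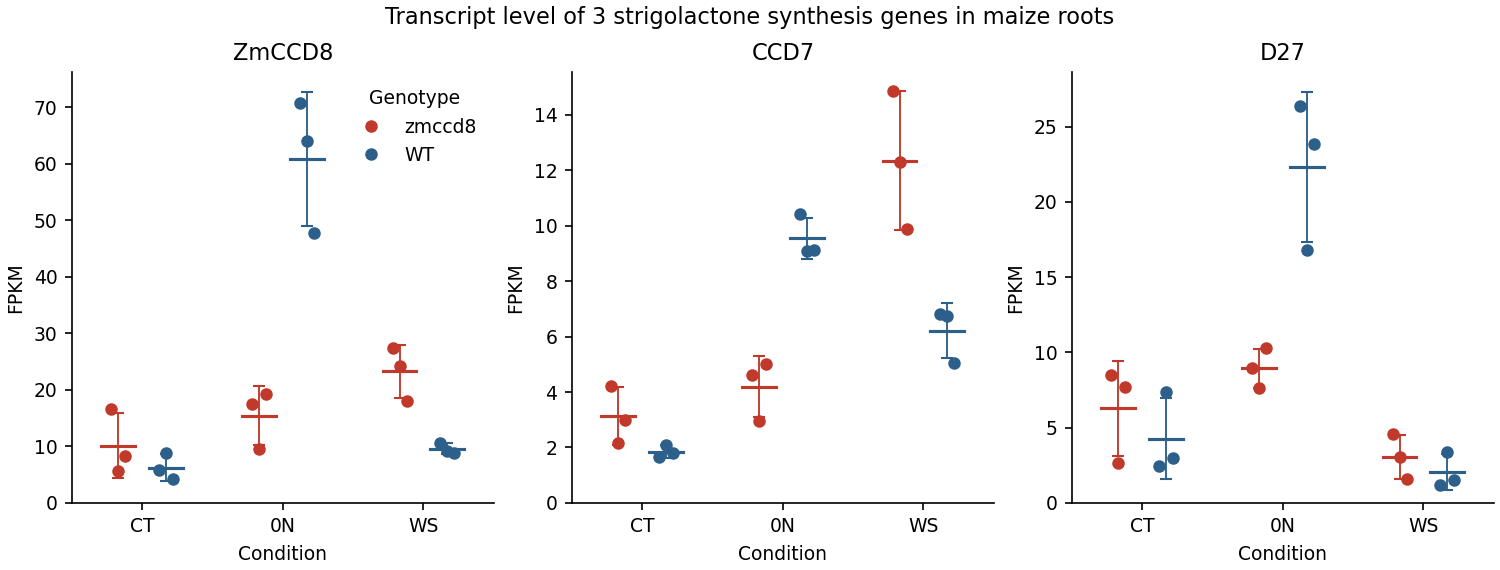
Transcript level (FPKM, linear axis from 0) of ZmCCD8, CCD7 and D27 under CT, 0N and WS. Points are libraries, horizontal bars group means and whiskers SD (n = 3), with *zmccd8* left of WT. ZmCCD8 in WT under 0N reached 47.8 to 70.9 FPKM, above every other library of that gene, and CCD7 was highest in *zmccd8* under WS.

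In limma, with log2(FPKM + 1) and Benjamini-Hochberg adjustment over all 27530 genes, a gene was called when its adjusted p was 0.05 or less and its log2 difference at least 1 in size. Under 0N, ZmCCD8 differed by −1.95 ± 0.28 (log2 difference *zmccd8* minus WT ± SE, adjusted p = 0.0235) and D27 by −1.21 ± 0.20 (adjusted p = 0.0354), and both were called lower. CCD7 differed by −1.04 ± 0.20, with an adjusted p of 0.0565, just outside the threshold. So 2 of 3 genes were called lower, where 1.57% of all genes were called and 0.89% were called lower. The ZmCCD8 call was lost when *zmccd8* replicate 1, WT replicate 1 or WT replicate 2 was left out (adjusted p 0.0790, 0.125 and 0.0976), and the D27 call without *zmccd8* replicate 1 or 2 or WT replicate 1 or 3 (adjusted p 0.132, 0.103, 0.159 and 0.0926). CCD7 was called without *zmccd8* replicate 3 (adjusted p = 0.0446), and without the filter on low values neither ZmCCD8 (adjusted p = 0.0918) nor D27 (adjusted p = 0.0975) passed. D27 was also not called when all 18 libraries were fitted together (adjusted p = 0.0521), where CCD7 was (adjusted p = 0.00487), or when the genes of chromosome 3 were left out of those tested (adjusted p = 0.0585).

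Under WS the *zmccd8* libraries had more ZmCCD8 and CCD7 transcript than the WT libraries, without overlap, as 9.28% of all genes did, and the difference passed the test for ZmCCD8. ZmCCD8 had 27.4, 24.2 and 18.1 FPKM in *zmccd8*, against 10.7, 9.22 and 8.85 FPKM in WT, and the groups did not overlap. The mean in *zmccd8* was 2.43-fold that in WT, the log2 difference was 1.18 ± 0.17, and ZmCCD8 was called higher (adjusted p = 0.0218). CCD7 had 14.9, 12.3 and 9.88 FPKM in *zmccd8*, against 6.81, 6.75 and 5.06 FPKM in WT, again without overlap. Its mean was 1.99-fold that in WT, but its log2 difference of 0.88 ± 0.18 had an adjusted p of 0.0945 and was not called. D27 had 4.55, 3.05 and 1.59 FPKM in *zmccd8*, against 1.19, 3.39 and 1.53 FPKM in WT, so the groups overlapped (log2 difference 0.42 ± 0.36, adjusted p = 0.661). Of the 3 genes 1 was called higher, where 0.901% of all genes were called and 0.487% were called higher. The call of ZmCCD8 was lost without *zmccd8* replicate 1 or 2 or any of the WT replicates (adjusted p 0.0762 to 0.123), with log2 differences of 1.06 to 1.34 over the 6 omissions. It was also lost without the filter on low values (adjusted p = 0.0995) and when all 18 libraries were fitted together (adjusted p = 0.0923).

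Under CT none of the 3 genes was called between the genotypes, where 0.835% of all genes were, and ZmCCD8 and D27 overlapped. ZmCCD8 had 16.6, 5.63 and 8.22 FPKM in *zmccd8*, against 5.80, 8.76 and 4.16 FPKM in WT (log2 difference 0.55 ± 0.39, adjusted p = 0.851). CCD7 had 4.23, 2.15 and 2.98 FPKM in *zmccd8*, against 1.66, 2.10 and 1.80 FPKM in WT (0.50 ± 0.22, adjusted p = 0.683). Its groups stood apart only narrowly, at 2.15 FPKM in the lowest *zmccd8* library and 2.10 FPKM in the highest WT library, and 5.79% of all genes were higher without overlap. D27 had 8.48, 2.65 and 7.69 FPKM in *zmccd8*, against 2.45, 7.37 and 2.97 FPKM in WT (0.46 ± 0.46, adjusted p = 0.895). Replicate 2 was the lowest *zmccd8* library and the highest WT library for each of the 3 genes, although both libraries followed their labels in the check above (151 and 6 of 155 genes nearer to *zmccd8*). Since *zmccd8* carries its insertion inside ZmCCD8, the reads summed over the whole gene do not show whether the transcripts in the mutant were intact. Reads on ZmCCD8 were present in all 9 *zmccd8* libraries, at 5.63 to 27.4 FPKM. By quantitative RT-PCR, in contrast, the study reported no detectable CCD8 transcript in the mutant. The reason for this difference was not tested, and FPKM of ZmCCD8 in *zmccd8* stands here for reads anywhere on the gene.

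The turn between 0N and WS was tested as 1 contrast, the genotype difference under 0N minus that under WS, which was added after these values had been seen. ZmCCD8 and CCD7 were lower without overlap in *zmccd8* under 0N and higher without overlap under WS, a pattern of 0.984% of all genes. For ZmCCD8 this was −3.13 ± 0.34 on the log2 scale (limma, adjusted p = 0.0134) and for CCD7 −1.92 ± 0.27 (adjusted p = 0.0264), and both were called. D27 had −1.63 ± 0.43 (adjusted p = 0.1002). Across all genes 0.283% were called in this contrast and 0.182% were called in the same direction. Without WT 0N replicate 1, ZmCCD8 was no longer called (adjusted p = 0.0721). The CCD7 call was lost in 6 of 12 omissions, namely replicate 1 of *zmccd8* or WT under 0N, replicate 1 or 2 of *zmccd8* under WS, and replicate 1 or 3 of WT under WS (adjusted p 0.0567 to 0.0991), and also without the genes of chromosome 3 among those tested (adjusted p = 0.0501).

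**Figure D2:**
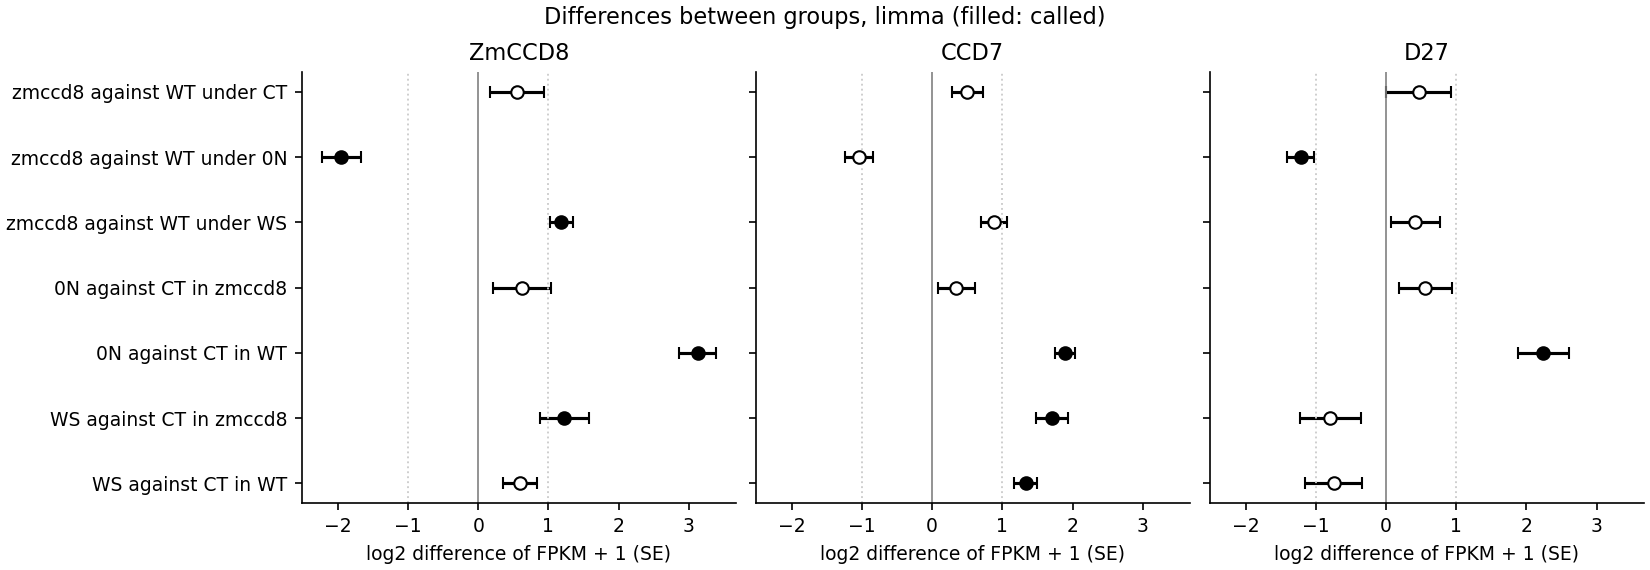
Differences of log2(FPKM + 1) between groups for the 3 genes, with SE from limma, the first-named group minus the second. Filled points were called (adjusted p of 0.05 or less and a log2 difference of at least 1, dotted lines), as for 0N against CT in WT, where ZmCCD8 stood at 3.13, and D27 was not called in any comparison that involves WS.

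All 3 genes were higher under 0N than under CT in WT roots, without overlap, as were 18.6% of all genes. ZmCCD8 had 70.9, 64.1 and 47.8 FPKM under 0N, against 5.80, 8.76 and 4.16 FPKM under CT, a 9.76-fold higher mean and a log2 difference of 3.13 ± 0.26 (limma, adjusted p = 0.00482). By size this was rank 4 of the 27530 genes from the most raised. D27 had 26.4, 16.8 and 23.8 FPKM under 0N, against 2.45, 7.37 and 2.97 FPKM under CT (2.24 ± 0.36, adjusted p = 0.0212, rank 29). CCD7 had 10.4, 9.08 and 9.14 FPKM under 0N, against 1.66, 2.10 and 1.80 FPKM under CT (1.89 ± 0.14, adjusted p = 0.00453, rank 75). Thus 3 of 3 genes were called higher, where 4.76% of all genes were called and 1.94% were called higher. ZmCCD8 and CCD7 were called in each of the 6 omissions of a library (log2 differences 2.91 to 3.37 and 1.83 to 1.95), whereas D27 lost its call without WT CT replicate 1 or 3 or WT 0N replicate 1 or 3 (adjusted p 0.0517, 0.0674, 0.0885 and 0.0722) and without the filter on low values (adjusted p = 0.0641).

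In *zmccd8* roots the same comparison gave differences within the spread between replicates. ZmCCD8 had 17.6, 9.47 and 19.2 FPKM under 0N, against 16.6, 5.63 and 8.22 FPKM under CT (0.62 ± 0.41, adjusted p = 0.286). D27 had 8.93, 7.66 and 10.3 FPKM under 0N, against 8.48, 2.65 and 7.69 FPKM under CT (0.56 ± 0.37, adjusted p = 0.292). CCD7 had 4.62, 2.95 and 5.02 FPKM under 0N, against 4.23, 2.15 and 2.98 FPKM under CT (0.34 ± 0.26, adjusted p = 0.360). All 3 genes overlapped between 0N and CT, and 0 of 3 were called, where 7.37% of all genes were called. The difference between the genotypes in this response, a genotype by 0N interaction over 12 libraries, was −2.50 ± 0.52 for ZmCCD8, −1.54 ± 0.30 for CCD7 and −1.68 ± 0.55 for D27 on the log2 scale. After adjustment over all genes none of the 3 passed (limma, adjusted p 0.161, 0.158 and 0.194). No gene of the whole table was called in that interaction (0% of all genes, with 4804 of 27530 at an unadjusted p under 0.05), and voom on the rebuilt reads also called 0 genes. A fit of the whole set of 18 libraries called 19 genes, omission of the filter 2, and omission of *zmccd8* 0N replicate 3 134.

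Under WS, CCD7 was higher than under CT in both genotypes, ZmCCD8 was called higher in *zmccd8*, and D27 was called in neither. CCD7 had 14.9, 12.3 and 9.88 FPKM in *zmccd8* under WS, against 4.23, 2.15 and 2.98 FPKM under CT, a 3.96-fold higher mean (1.71 ± 0.23, adjusted p = 0.00173). In WT it had 6.81, 6.75 and 5.06 FPKM under WS, against 1.66, 2.10 and 1.80 FPKM under CT, 3.35-fold higher (1.33 ± 0.17, adjusted p = 0.00188). CCD7 was called in both genotypes, and in each of the 6 omissions per genotype. ZmCCD8 had 27.4, 24.2 and 18.1 FPKM in *zmccd8* under WS, against 16.6, 5.63 and 8.22 FPKM under CT, without overlap, as 25.2% of all genes were higher, and was called (1.22 ± 0.35, adjusted p = 0.0318). That call was lost without *zmccd8* CT replicate 2 or 3 or *zmccd8* WS replicate 1 or 2 (adjusted p 0.0597, 0.0908, 0.0985 and 0.0910) and without the filter on low values (adjusted p = 0.0937). In WT, ZmCCD8 had 10.7, 9.22 and 8.85 FPKM under WS, against 5.80, 8.76 and 4.16 FPKM under CT, which was 1.53-fold higher without overlap, as were 26.2% of all genes, but not called (0.59 ± 0.24, adjusted p = 0.0973).

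D27, the first enzyme of the route, had lower means under WS than under CT in both genotypes, with overlapping libraries. In *zmccd8* its values were 4.55, 3.05 and 1.59 FPKM under WS, against 8.48, 2.65 and 7.69 FPKM under CT (−0.79 ± 0.43, adjusted p = 0.190). In WT they were 1.19, 3.39 and 1.53 FPKM under WS, against 2.45, 7.37 and 2.97 FPKM under CT (−0.75 ± 0.41, adjusted p = 0.190). Without *zmccd8* CT replicate 2, the lowest of its group, D27 was called lower in *zmccd8* (−1.23, adjusted p = 0.0284). In *zmccd8* 2 of 3 genes were called higher, where 16.6% of all genes were called and 6.24% called higher. In WT 1 of 3 was called higher, where the shares of all genes were 17.8% and 7.41%. The WS and 0N comparisons of a genotype share their CT libraries. The genotype by WS interaction was 0.63 ± 0.45 for ZmCCD8, 0.38 ± 0.29 for CCD7 and −0.04 ± 0.62 for D27 (adjusted p 0.762, 0.781 and 0.991), with none called, where 0.0218% of all genes were called.

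Marker transcripts of cell types were also read beside these comparisons. For the Casparian strip proteins, the summed level over 8 features was 16.8 to 42.9 FPKM in *zmccd8* and 34.6 to 54.8 FPKM in WT under WS, and 35.5 to 87.8 FPKM in *zmccd8* and 72.8 to 102 FPKM in WT under 0N. Under CT it was 115 to 151 FPKM in *zmccd8* and 107 to 190 FPKM in WT. Under WS 6 of the 7 features past the filter were called lower than under CT in each genotype, and under 0N 2 in *zmccd8* and 1 in WT. Of all genes, 10.3% in *zmccd8* and 10.4% in WT were called lower under WS, and 5.63% in *zmccd8* and 2.82% in WT under 0N. The single feature at 0 in every library was below the filter. The summed level of the 19 leaf marker features, matched by enzyme name alone, was 406.7 to 467.1 FPKM in *zmccd8* under WS, against 282.6 to 385.7 FPKM under CT. In WT it was 359.1 to 407.8 FPKM under WS, against 247.5 to 324.8 FPKM under CT. Not all features followed the sum. Over the 8 past the filter, the median log2 difference WS minus CT was −0.30 in *zmccd8* and −0.34 in WT. It was above 0 for 3 of the 8 in *zmccd8* and for 4 in WT. Among the 8 a phosphoenolpyruvate carboxylase (Zm00001eb238670) was called higher under WS in both genotypes, and a pyruvate, phosphate dikinase (Zm00001eb287770) lower in WT. Of all genes, 6.24% in *zmccd8* and 7.41% in WT were called higher under WS. The leaf marker sum under 0N was 258.3 to 288.3 FPKM in *zmccd8* and 263.1 to 278.7 FPKM in WT. Compared with CT, 1 of the 8 was called lower under 0N in WT and 0 in *zmccd8*. The part of these markers in the levels of the 3 genes was not tested, and in RNA of whole roots fewer cells of a type and less RNA per cell cannot be told apart.

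Ordered by mean level, ZmCCD8 ran from WT under 0N (60.9 FPKM) to *zmccd8* under WS (23.3), *zmccd8* under 0N (15.4), *zmccd8* under CT (10.1), WT under WS (9.58) and WT under CT (6.24). WT under 0N stood clear of the next group by 2.62-fold, and WT under WS did not overlap WT under CT, while the other neighbours overlapped. CCD7 was highest in *zmccd8* under WS (12.3 FPKM), followed by WT under 0N (9.54), WT under WS (6.21), *zmccd8* under 0N (4.20), *zmccd8* under CT (3.12) and WT under CT (1.85). For CCD7 the overlapping neighbours were the top pair and the pair of *zmccd8* groups under 0N and CT. D27 ran from WT under 0N (22.3 FPKM) through *zmccd8* under 0N (8.95), *zmccd8* under CT (6.27), WT under CT (4.26) and *zmccd8* under WS (3.06) to WT under WS (2.03). Only the step from WT under 0N to the next group was free of overlap for D27.

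The balance between the 3 transcripts, taken as a ratio of FPKM within each library, differed between the conditions and is given here without a test. FPKM is scaled to gene length, so that levels of different genes can be set side by side. The ratio of D27 to CCD7 was 0.306, 0.248 and 0.161 in *zmccd8* under WS, against 2.003, 1.235 and 2.580 under CT. In WT it was 0.174, 0.502 and 0.302 under WS, against 1.481, 3.505 and 1.654 under CT. All 6 WS libraries had more CCD7 than D27 transcript per length, and all 12 others had more D27 than CCD7. Under 0N the ratio was 1.93, 2.59 and 2.04 in *zmccd8* and 2.53, 1.85 and 2.61 in WT. The ratio of ZmCCD8 to CCD7 was 3.805, 3.205 and 3.836 in *zmccd8* under 0N, against 6.81, 7.06 and 5.23 in WT under 0N. It was lowest under WS, at 1.84, 1.97 and 1.83 in *zmccd8* and 1.57, 1.37 and 1.75 in WT. ZmCCD8 was the most abundant of the 3 in all 18 libraries, by at least 1.07-fold over D27 and 1.37-fold over CCD7.

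**Figure D3:**
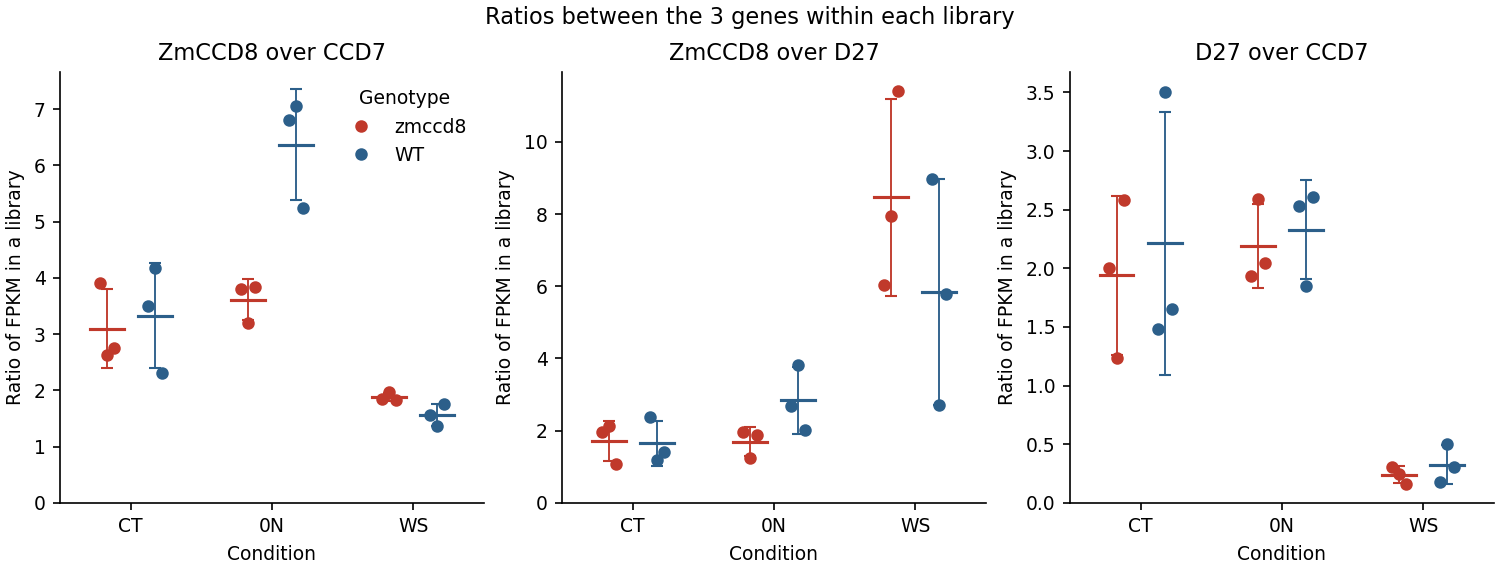
Ratio of FPKM between pairs of the 3 genes within each library (linear axis from 0), under CT, 0N and WS. Points are libraries, bars group means and whiskers SD (n = 3), with *zmccd8* left of WT. The ratio of D27 to CCD7 lay between 0.161 and 0.502 in the 6 WS libraries and at 1.23 or above in the others.

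Replicates that were high in one gene of the route tended to be high in the others, with Pearson's r past the test for 3 of 3 pairs and Spearman's rho for 2 of 3. After subtraction of each group's mean of log2(FPKM + 1), the deviations of ZmCCD8 and CCD7 had a Pearson r of 0.868 over 18 libraries (exact permutation within groups over 46656 arrangements, two-sided, p = 0.000429, adjusted over 3 pairs p = 0.00129). Spearman's rho was 0.862 (exact permutation p = 0.000557, adjusted p = 0.00167). Both genes deviated in the same direction in 16 of 18 libraries, and r was 0.790 without the 2 libraries farthest from the median of ZmCCD8. For CCD7 and D27, r was 0.714 (exact permutation p = 0.00412, adjusted p = 0.00617) and rho 0.655 (exact permutation p = 0.0104, adjusted p = 0.0156), with 15 of 18 libraries in the same direction and an r of 0.729 without the 2 farthest. For ZmCCD8 and D27, r was 0.633 (exact permutation p = 0.0324, adjusted p = 0.0324) and rho 0.550 (exact permutation p = 0.0549, adjusted p = 0.0549), with 13 of 18 in the same direction and an r of 0.484 without the 2 farthest. That last pair did not pass without the 3 *zmccd8* 0N libraries (r = 0.655, exact permutation, adjusted p = 0.0667). The values of each pair come from the same libraries, so any difference between pots or RNA samples is shared between them, and its part was not tested. The share of other gene pairs that would pass the same test was not computed, so these values do not show a trait particular to the route.

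**Figure D4:**
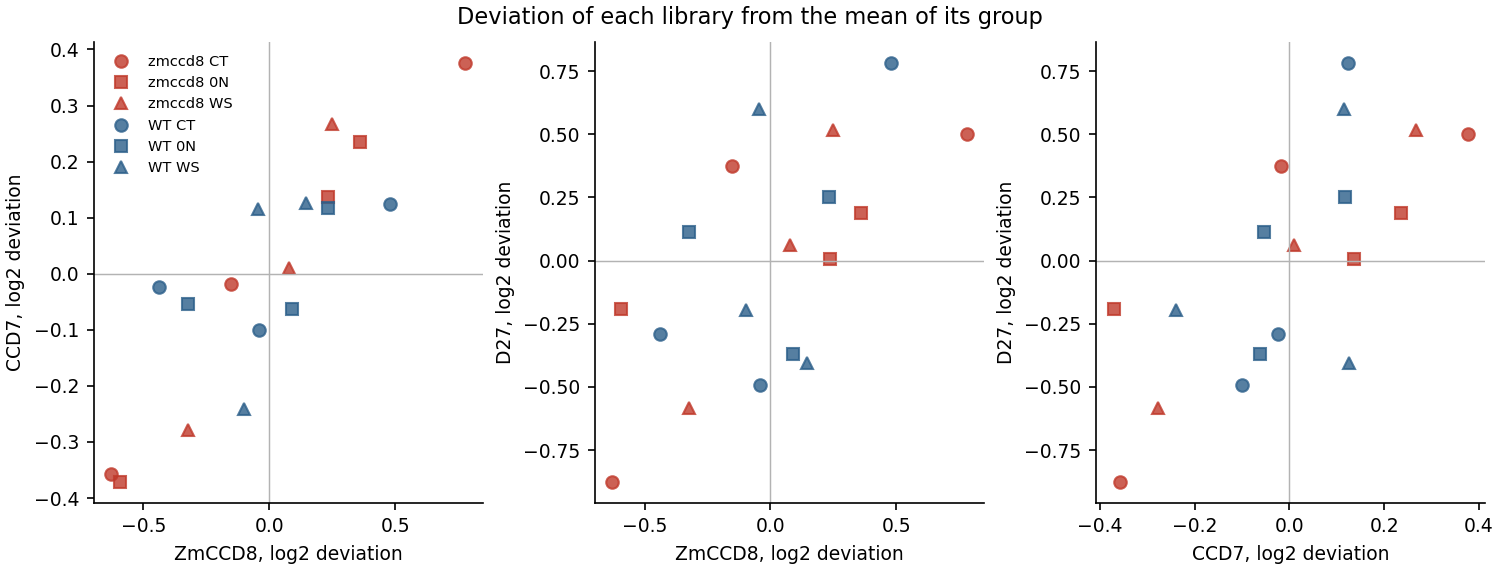
Deviation of each library from its group mean, in log2(FPKM + 1), for the 3 pairs of genes (18 libraries, colour for genotype and symbol for condition). Libraries fell mainly in the lower left and upper right, 16 of 18 for ZmCCD8 with CCD7, 13 for ZmCCD8 with D27 and 15 for CCD7 with D27.

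The other genes of the route were taken by the name of their best protein hit. Of 6 further features named D27, only Zm00001eb114700 passed the filter. It lies on the same chromosome as D27, from 234333870 on, and how far both genes share sequence was not analysed here. It had 25.2, 14.4 and 26.7 FPKM in *zmccd8* and 55.0, 22.8 and 55.8 FPKM in WT under 0N (−0.92 ± 0.39, adjusted p = 0.190), so the groups overlapped. In WT it was 2.13 ± 0.50 higher on the log2 scale under 0N than under CT, where it had 4.87, 16.7 and 7.77 FPKM, with an adjusted p of 0.0504. Under WS it fell, to 5.05, 2.12 and 2.65 FPKM in *zmccd8*, against 11.4, 8.05 and 11.8 FPKM under CT (−1.46 ± 0.28, adjusted p = 0.00680). In WT it had 2.85, 1.05 and 1.07 FPKM under WS, and was called lower there as well (−1.93 ± 0.45, adjusted p = 0.0162).

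Of 5 features named CYP711A, 2 passed the filter, and 1 of them was called in the same 0N comparisons as ZmCCD8. Across all genes, 0.89% were called lower in *zmccd8* than in WT under 0N, and 1.94% higher for 0N against CT in WT. On chromosome 3, where Zm00001eb123090 lies, 6.25% of genes were called between genotypes under 0N. Zm00001eb123090, on chromosome 3 from 13017850 to 13020597, had 11.8, 11.4 and 15.4 FPKM in *zmccd8* under 0N, against 33.3, 36.5 and 32.4 FPKM in WT, and was called lower (−1.35 ± 0.14, adjusted p = 0.00623). It was called higher under 0N than under CT in WT (1.26 ± 0.10, adjusted p = 0.00453), with 13.6, 13.1 and 14.2 FPKM under CT. In *zmccd8* it had 14.1, 8.99 and 11.4 FPKM under CT and did not pass (0.16 ± 0.20, adjusted p = 0.578). Zm00001eb384100 had 10.7, 17.3 and 15.9 FPKM in *zmccd8* and 21.5, 15.1 and 22.5 FPKM in WT under 0N (−0.41 ± 0.22, adjusted p = 0.271). Both fell under WS in both genotypes, by 1.68 and 1.66 on the log2 scale in *zmccd8* (adjusted p 0.000651 and 0.000929) and by 1.69 and 2.30 in WT (adjusted p 0.000303 and 0.000834). Under WS they had 1.93 to 4.12 FPKM in any library. The shares of all genes called lower under WS were 10.3% in *zmccd8* and 10.4% in WT.

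**Figure D5:**
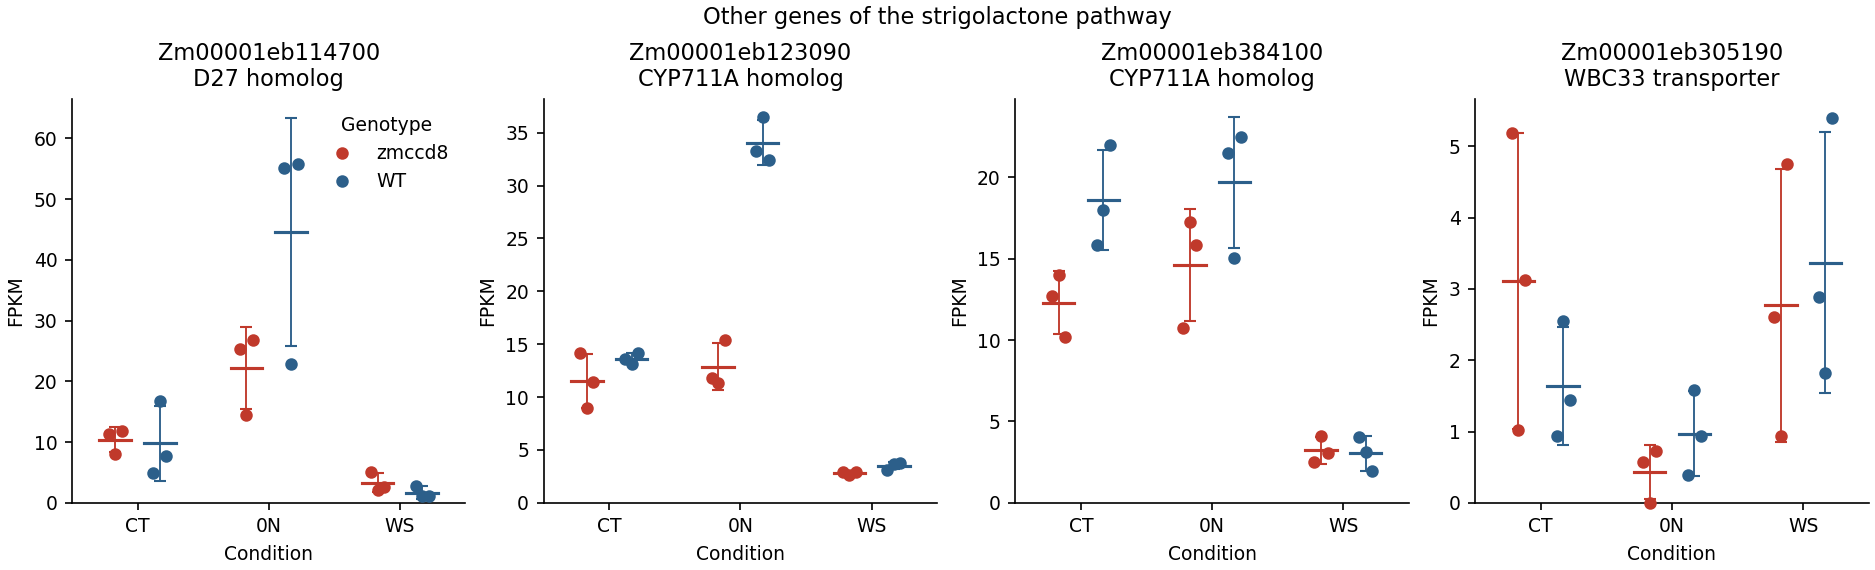
Transcript level (FPKM, linear axis from 0) of the further D27, CYP711A and WBC33 genes under CT, 0N and WS. Points are libraries, bars group means and whiskers SD (n = 3), with *zmccd8* left of WT. Zm00001eb123090 reached 32.4 to 36.5 FPKM in WT under 0N, and both CYP711A genes were at 1.93 to 4.12 FPKM under WS.

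The ABC transporter WBC33 (Zm00001eb305190), which the study counts among its SL genes, was low and variable. It had 0.570, 0 and 0.723 FPKM in *zmccd8* under 0N, against 5.18, 1.02 and 3.13 FPKM under CT (−1.42 ± 0.43, adjusted p = 0.0603), and it was called in none of the 7 comparisons between groups. No feature carried a name of the nodulation-signaling regulators NSP.

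Upstream of D27, carotenoids are built by phytoene synthase, desaturases and isomerases and closed by lycopene cyclases. Of 20 features of that route 10 passed the filter. Phytoene synthase 2 (Zm00001eb367770) was called higher under 0N in WT (1.28 ± 0.20, adjusted p = 0.0199), the only one called under 0N in either genotype. Its group means were 0.31 ± 0.23 higher on the log2 scale under 0N in *zmccd8* (adjusted p = 0.349). In WT 1.94% of all genes were called higher and 2.82% lower under 0N, and in *zmccd8* 1.74% and 5.63%. Under WS, phytoene synthase 3 (Zm00001eb320650) was called higher and phytoene synthase 1 (Zm00001eb271860) lower, in *zmccd8* (3.46 ± 0.19 and −1.44 ± 0.19) and in WT (2.94 ± 0.33 and −1.14 ± 0.22). The shares of all genes called under WS were 6.24% higher and 10.3% lower in *zmccd8*, and 7.41% and 10.4% in WT. None of the 10 was called between the genotypes under CT, 0N or WS, where 0.835%, 1.57% and 0.901% of all genes were. Phytoene synthase 2 came nearest, under 0N (−0.98 ± 0.16, adjusted p = 0.0344, below the size threshold), and over the 10 the median log2 difference *zmccd8* minus WT was −0.15 under 0N, beside −0.01 over all genes.

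Other carotenoid cleavage enzymes, which feed abscisic acid and apocarotenoid synthesis, numbered 22 features with 9 past the filter. Under 0N in WT 2 were called higher and none lower, both with a *Crocus sativus* carotenoid cleavage dioxygenase as best hit. In that comparison 1.94% of all genes were called higher and 2.82% lower. Zm00001eb375850 averaged 30.0 FPKM under 0N in WT, against 1.98 FPKM under CT (3.42 ± 0.25, adjusted p = 0.00421), and Zm00001eb309770 rose by 1.22 ± 0.12 (adjusted p = 0.00617). In *zmccd8* neither was called under 0N (1.64 ± 0.56, adjusted p = 0.0770, and 0.06 ± 0.52, adjusted p = 0.939). The shares of all genes called under WS were 6.24% higher and 10.3% lower in *zmccd8*, and 7.41% and 10.4% in WT. Of the 9 features, 4 were called higher and 1 lower under WS in each genotype. The 3 largest in *zmccd8* were NCED4 homologs Zm00001eb300240 (4.37 ± 0.26) and Zm00001eb117480 (3.12 ± 0.26), both of the family that cleaves epoxycarotenoids on the way to abscisic acid, and Zm00001eb309770 (−2.45 ± 0.56). In WT the same genes stood at 3.57 ± 0.22, 2.52 ± 0.26 and −2.07 ± 0.20. Comparing *zmccd8* with WT, none of the 9 was called in any condition. The matching shares of all genes were only 0.835% (CT), 1.57% (0N) and 0.901% (WS), so a list this short cannot show fewer calls than other genes. The median log2 difference *zmccd8* minus WT over the 9 was −0.625 under 0N, beside −0.01 over all genes. It was −0.04 under CT and 0.006 under WS, beside 0.003 and −0.02 over all genes.

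Downstream, 14 of 20 features named after the *Arabidopsis* SL hydrolase CXE15 passed the filter. Between the genotypes Zm00001eb300620 alone was called, lower in *zmccd8* under 0N (−2.85 ± 0.24, adjusted p = 0.00240). Across all genes 0.835%, 1.57% and 0.901% were called between genotypes under CT, 0N and WS, with 0.89% lower under 0N. In all, 0N against CT called 3 of the 14 lower in *zmccd8* and 0 in WT, namely Zm00001eb349490 (−2.0 ± 0.43), Zm00001eb336030 (−1.35 ± 0.26) and Zm00001eb336040 (−1.10 ± 0.28), beside 5.63% of all genes called lower in *zmccd8* and 2.82% in WT. The WS comparison called 2 up and 6 down in *zmccd8*, and 2 up and 5 down in WT, with Zm00001eb300670 at −2.91 ± 0.13 in *zmccd8* and −2.56 ± 0.25 in WT and Zm00001eb123910 at 2.43 ± 0.19 in *zmccd8* and 2.59 ± 0.36 in WT. Of all genes, 6.24% were called higher and 10.3% lower under WS in *zmccd8*, and 7.41% higher and 10.4% lower in WT. Among 14 of 30 perception features past the filter (D14, MAX2 and D53/SMAX1 names), 1, 1 and 2 were called lower in *zmccd8* under CT, 0N and WS, and none higher, beside 0.4%, 0.89% and 0.414% of all genes called lower. Under 0N against CT 1 was called higher in *zmccd8* and 0 in WT, beside 1.74% of all genes in *zmccd8* and 1.94% in WT, and under WS 5 were called lower in *zmccd8* and 1 in WT, beside 10.3% and 10.4% of all genes. The repressor D53 (Zm00001eb404750) was lower in *zmccd8* under CT, 0N and WS (−1.03 ± 0.16, −1.05 ± 0.16 and −1.09 ± 0.18, adjusted p 0.0416, 0.0279 and 0.0438), and the receptor D14 (Zm00001eb007670) under WS (−1.02 ± 0.16, adjusted p = 0.0350).

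The level of ZmCCD8 in the mutant could be read beside its surroundings on chromosome 3. Of the 10 annotated genes on each side, which span 985 kb, 19 passed the filter. Under CT and 0N none of them was called between genotypes, and under WS only Zm00001eb153020, a gene without a named hit 290 kb away, was called (log2 difference −1.18, adjusted p = 0.0464). Their median log2 difference *zmccd8* minus WT was −0.0017 under CT, 0.11 under 0N and −0.01 under WS. For ZmCCD8 the difference was 0.55 under CT, where it was not called, −1.95 under 0N and 1.18 under WS. On chromosome 3 as a whole, 4.44%, 6.25% and 4.57% of genes were called between genotypes under CT, 0N and WS, against 0.399%, 1.01% and 0.456% of genes elsewhere.

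Genes whose pattern was most like each member were ranked by Pearson r of log2(FPKM + 1) over the 18 libraries among 23873 annotated genes, as a description. The leading gene for ZmCCD8 was zeta-carotene desaturase (Zm00001eb302940, r = 0.877), an enzyme of the carotenoid route, which was also among the first 5 for CCD7 (r = 0.898). It averaged 12.04 FPKM in *zmccd8* and 17.4 FPKM in WT under 0N, and 11.2 FPKM in *zmccd8* and 9.97 FPKM in WT under CT. The others for ZmCCD8 were an ABC transporter of family B (Zm00001eb425050, r = 0.871), an oligopeptide transporter (Zm00001eb378720, r = 0.870), a BLUS1-like kinase (Zm00001eb405010, r = 0.866) and Zm00001eb042320, which has no named hit (r = 0.853). The oligopeptide transporter averaged 14.3 FPKM in *zmccd8* and 41.5 FPKM in WT under 0N, beside 7.23 to 11.1 FPKM in the other 4 groups. For CCD7, the list was led by a quinone oxidoreductase homolog (Zm00001eb420610, r = 0.915), cysteine proteinase 2 (Zm00001eb314220, r = 0.913), a HOX18 homeobox gene (Zm00001eb226570, r = 0.907) and an FCS-like zinc finger gene (Zm00001eb072680, r = 0.899). For D27 it held a serine carboxypeptidase (Zm00001eb168520, r = 0.925), a patatin-like protein (Zm00001eb200100, r = 0.918), a UPF0481 protein (Zm00001eb426130, r = 0.917), a LysM receptor-like kinase (Zm00001eb342100, r = 0.912) and the cleavage dioxygenase Zm00001eb375850 (r = 0.911). Among the members themselves, CCD7 stood at rank 53 and D27 at rank 255 for ZmCCD8 (r = 0.796 and 0.693), whereas D27 stood at rank 8523 for CCD7 (r = 0.195), with WS libraries in which CCD7 was high and D27 low. The 18 libraries form 6 groups, so differences between group means enter these values. Ranked by Spearman's rho instead, 0, 2 and 0 of the first 5 genes were shared for ZmCCD8, CCD7 and D27, and by r over the 6 group means 1, 0 and 1.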

How the data were processed

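Root RNA of 18 libraries (6 groups of 3) was sequenced by the authors as strand-specific, poly-A selected libraries, trimmed with fastp, aligned to the NAM-5.0 assembly with HISAT2 2.0.5 and counted per gene with featureCounts. Trimmomatic is also named in the submitters' processing notes. The deposited table holds FPKM values that the authors made from gene counts, and median-of-ratios factors computed on it were 1, so they had already been scaled between libraries. Reads were rebuilt from FPKM and length, with all values whole within 0.01, and used only for depth and an alternative fit. The strand setting of the counting is not given in the sources used here.

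Genes were kept where 3 or more of the 18 libraries reached 1 FPKM. Differences of log2(FPKM + 1), a scale that understates changes of low genes, were tested with limma 3.58.1 (R 4.3.3, moderated test with a mean-variance trend) on the 6 libraries of each comparison, or 12 for interactions. P-values were adjusted by Benjamini-Hochberg over all genes. They measure the spread between root pools. An exact permutation test of 3 against 3 libraries cannot go below 0.1, so none is given for single genes.

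Genes and lists were chosen with earlier results of these data known. Lists were matched to the names of the best protein hits, named genes being the D27, CYP711A and transporter features past the filter, up to 3 called features of each other list and comparison, and the 5 genes with the highest r for each member. The genotype difference of phytoene synthase 2 under 0N and the contrast of 0N with WS were chosen after the values were seen. Alternatives were omission of the filter, a mean of 5 FPKM as filter, a pseudocount of 0.1, a fit of all 18 libraries, no variance trend, median-of-ratios scaling, voom on rebuilt reads, a replicate block, removal of chromosome 3 genes and omission of each library. No main fit held the replicate block, which was fitted as an alternative only. The replicate numbers were taken to pair libraries where the residual correlation of every same-numbered pair was over 0.1. This held for WS against CT in *zmccd8* (0.135 to 0.253), whose values in the Results are thus unpaired. In 3 further comparisons all pairs were positive with the lowest under that limit, at 0.001 to 0.159 between genotypes under CT, 0.072 to 0.288 between genotypes under WS and 0.096 to 0.39 for 0N against CT in *zmccd8*.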

Additional observations from a re-analysis of the deposited data

Results flagged for a closer look

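The genotype difference of ZmCCD8 and of CCD7 ran in opposite directions under 0N and WS. The log2 difference *zmccd8* minus WT under 0N, less that under WS, was −3.134 for ZmCCD8 (SE 0.34, adjusted p = 0.0134, limma) and −1.923 for CCD7 (SE 0.27, adjusted p = 0.0264, limma), and the *zmccd8* and WT libraries did not overlap in either condition. The same pattern, lower without overlap under 0N and higher without overlap under WS, was present in 0.984% of all genes. With a replicate block the CCD7 value was no longer called (adjusted p = 0.0728, limma), and the number of genes called in this contrast was 2 in place of 78. This contrast was chosen after the values had been seen.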

How the results depend on the processing

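Of 494 values for the 30 results on the 3 genes under alternatives, 443 kept their direction and side of the threshold, 40 lost and 3 gained a call, and 8 changed sign. The 494 include the values of results that were not called in the main fit and so had no call to lose. ZmCCD8 and CCD7 for 0N against CT in WT, and CCD7 for WS against CT in both genotypes, were called under every alternative. The cause of the changes below was not tested. Without the filter, ZmCCD8 (−1.95) and D27 (−1.21) under 0N, ZmCCD8 under WS (1.18), D27 for 0N in WT (2.24) and ZmCCD8 for WS in *zmccd8* (1.22) lost their calls, each over more genes. In a fit of all 18 libraries CCD7 (−1.04) was called under 0N (adjusted p = 0.00487, limma), while D27 under 0N and ZmCCD8 under WS (adjusted p 0.0521 and 0.0923) were not. Without chromosome 3 genes, D27 under 0N (adjusted p = 0.0585) and CCD7 for 0N against WS (−1.92, adjusted p = 0.0501) lost theirs. The D27 genotype by WS interaction was 0.0351 with a pseudocount of 0.1 and 0.0792 with voom. ZmCCD8 with D27 had an r of 0.655 without *zmccd8* 0N libraries.

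With the replicate number as a block, calls were lost by ZmCCD8 (−1.95, adjusted p = 0.0939) and D27 (−1.21, adjusted p = 0.0893) under 0N, D27 for 0N in WT (2.24, adjusted p = 0.0694) and CCD7 for 0N against WS (−1.92, adjusted p = 0.0728), and it changed no other call of the 3 genes. For WS in *zmccd8* the block gave 4684 called genes. The 3 genes had adjusted p-values there of 0.0140 (ZmCCD8), 0.00167 (CCD7) and 0.138 (D27, limma with block). In the other comparisons not every same-numbered pair passed a correlation of 0.1, and the labels give no further pairing: 4, 0 and 4 of 6 libraries correlated best with their own number between genotypes under CT, 0N and WS, 3 for 0N in either genotype and 2 for WS in WT.

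With one library omitted, the ranges were −2.13 to −1.66 for ZmCCD8, −1.16 to −0.86 for CCD7 and −1.40 to −1.09 for D27 between genotypes under 0N, 1.06 to 1.34 for ZmCCD8 under WS, 1.99 to 2.63 for D27 for 0N in WT, 0.91 to 1.61 for ZmCCD8 and −1.23 to −0.50 for D27 for WS in *zmccd8*, −0.48 to 0.26 for the D27 genotype by WS interaction, and −3.31 to −2.84 for ZmCCD8 and −2.06 to −1.74 for CCD7 for 0N against WS.

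Counts of called genes moved more. Between genotypes under CT the 230 became 124 without filter, 84 with a mean of 5 FPKM and 76 without chromosome 3 (131 to 178 with a library omitted). Under 0N the 433 became 215, 184 and 160 in these settings, 1443 in the fit of all libraries and 131 with the block (171 to 984). Under WS the 248 became 139, 105 and 96 (152 to 233). For 0N in WT the 1311 became 544 without filter and 601 with the block (326 to 1147), and in *zmccd8* the 2029 became 182 without filter (119 to 2707). For WS the 4893 in WT and 4565 in *zmccd8* became 3137 and 2866 with a mean of 5 FPKM. The genotype by 0N interaction called 2 genes without filter and 19 in the fit of all libraries (0 to 134). The genotype by WS interaction, at 6, gave 0 with a pseudocount of 0.1, with voom and without chromosome 3, 2 with a mean of 5 FPKM and with the block, and 17 in the fit of all libraries (2 to 7). For 0N against WS the 78 became 23 with a pseudocount of 0.1, 46 without filter, 50 with a mean of 5 FPKM, 229 in the fit of all libraries, 2 with the block, 10 with voom and 6 without chromosome 3 (0 to 739).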
